A study of Daucus carota with 6 samples.

Results

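Shredded carrot (Daucus carota) tissue held for 24 h (T24) was compared with shredded tissue that was not stored (T0), by small RNA sequencing of 2 libraries per time point. The comparison took in every miRNA that was above 0 in at least 1 of these 4 libraries, which gave 394 of the 469 miRNAs listed, or of the 464 that were above 0 in any of the 6 libraries of the series. Carrots of commercial grade were rinsed, disinfected with chlorine, peeled, shredded in a food processor and spun dry. T0 tissue was taken at that point, and T24 tissue was kept at 20 °C. T0 tissue had therefore also been peeled, disinfected and cut, so the comparison follows tissue through storage after cutting and holds no intact carrot, and time since cutting and storage cannot be told apart. The labels do not say that the libraries of a time point came from separate carrots, so p-values measure only the spread between these libraries, which may be technical.

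Plant miRNAs are short RNAs cut from hairpin transcripts by Dicer-like enzymes and loaded into Argonaute proteins. They pair with target transcripts along nearly their full length, which leads to cleavage or blocked translation. Many of the families shared by land plants act on transcription factors of growth, organ polarity and hormone response. Most carrot sequences carry the name of an entry in a miRNA database, with a prefix that is left out here. How the authors chose the entry is not stated in the sources used here. The prefixes hsa and oan of the names below point to database entries of other species and not to RNA of those species. Of the 394 names, 258 were of animal type (miR with a hyphen), 78 were of plant type (miR without one), and 58 had no relative and carry only a number, such as mir-64.

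The 7 sequences below are those that could be read from the study's target-prediction table. They include the most abundant miRNA of each time point. Bases 2 to 8, the stretch called the seed, are in capitals.
oan-miR-1421ag-5p: cGGUGGACugcuugagcugc
ptc-miR396f: uUCCACGGcuuucuugaacug
ath-miR165a-3p: uCGGACCAggcuucauucccc
hsa-miR-376a-5p: uUAGAUUCgcgcacaaacucg
rno-miR-337-3p: uUCAGCUCacauaucucucugg
pte-miR-11943-3p: uUAUGGUGauuuauuugugugg
aca-miR-5406-5p: uUUUUAGAccaaaggcucgcu
All 7 seeds were distinct. The miRNA that dominated T24, oan-miR-1421ag-5p, is 20 nt long with 65.0% G and C. By name, 2 of the printed sequences belong to conserved plant families. These are ptc-miR396f, whose family acts on growth-regulating factors in Arabidopsis, and ath-miR165a-3p, whose family acts there on class III HD-ZIP transcription factors of organ polarity. The sequences themselves were not compared with those of plant families. A name of animal type therefore does not place a sequence outside these families. The abundant hpo-miR-232a-5p and gga-miR-1799 are not among the 7.

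The deposited values are miRNA reads scaled to a total of 1000000 per library (RPM), and every value is therefore a share of its library. Taken as the smallest totals that make every value a whole number of reads, the libraries held 154758 and 174557 miRNA reads at T0 and 127079 and 134312 at T24, so that 1 read stood for 5.73 to 7.87 RPM. A value of 0 leaves room for up to 3 reads, which is 17.2 to 23.6 RPM. These floors cover counting error only, since reads without molecular identifiers cannot be counted as molecules. In each library 85.4 to 89.7% of the reads fell on its 3 leading miRNAs.

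The composition of the miRNA reads differed between T0 and T24 above all in 2 miRNAs. In the T0 libraries ptc-miR396f stood at 651566 and 645984 RPM, and at T24 it stood at 142116 and 259835 RPM. Both T24 libraries lay below both T0 libraries. In the T0 libraries oan-miR-1421ag-5p was listed at 0, and at T24 it stood at 547148 and 506053 RPM, or 54.7 and 50.6% of all miRNA reads. It was thus the most abundant miRNA of both T24 libraries, with 3.85 and 1.95 reads for each read of ptc-miR396f. No fold change is given for it because T0 is listed at 0.

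Because the values are shares, oan-miR-1421ag-5p lowered the RPM of every other miRNA at T24. All shares were therefore also computed without it, which left 57548 and 66343 reads in the T24 libraries. On this second scale ptc-miR396f was at 313825 and 526039 RPM at T24, still below both T0 libraries. Its change was -1.76 on the deposited scale and -0.68 on the second, as a difference of log2(RPM + 1), the measure of all log2 changes given here. In the T0 libraries ath-miR165a-3p had 154092 and 161861 RPM, and at T24 it had 164402 and 113944 RPM, which overlapped T0. Without oan-miR-1421ag-5p it had 363036 and 230680 RPM at T24, both above T0. Its direction therefore turned with the scale, from -0.21 to 0.87 on the log2 scale.

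**Figure D1:**
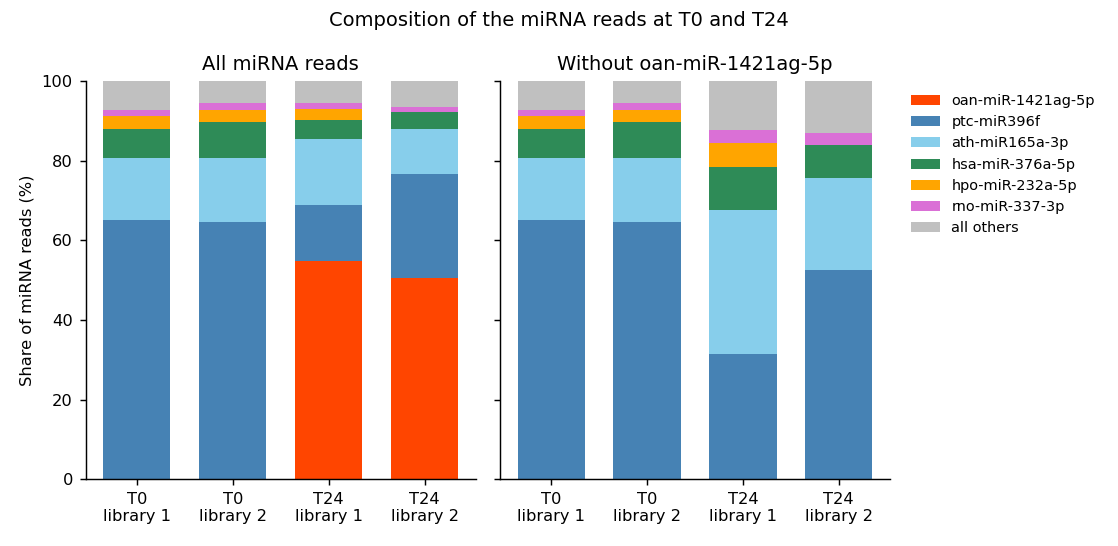
Share of miRNA reads (%, vertical axis, from 0) in each of the 4 libraries, stacked by miRNA, for all reads and for the reads left without oan-miR-1421ag-5p. That miRNA is listed at 0 at T0 and takes 54.7 and 50.6% of the T24 bars, and ptc-miR396f is the largest block at T0.

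Grouped by name, the plant-type miRNAs took 83.3 and 82.5% of the reads at T0 and 31.7 and 38.8% at T24. Without oan-miR-1421ag-5p they took 70.1 and 78.5% at T24, a much smaller fall, with both T24 libraries still below T0. Animal-type names went from 15.6 and 16.3% to 67.3 and 59.8%, or to 27.8 and 18.7% without it. The numbered miRNAs with no relative took 1.08 and 1.19% at T0 and 0.951 and 1.39% at T24, which overlapped, and 2.1 and 2.81% at T24 without oan-miR-1421ag-5p. The direction for the numbered miRNAs can therefore be read only on the second scale, where both T24 libraries lay above both T0 libraries.

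Ratios between miRNAs of the same library do not depend on the scale. There were 0.236 and 0.251 reads of ath-miR165a-3p for each read of ptc-miR396f at T0, and 1.16 and 0.439 at T24. For hsa-miR-376a-5p the ratio to ptc-miR396f was 0.114 and 0.138 at T0 and 0.343 and 0.159 at T24. For rno-miR-337-3p it was 0.0242 and 0.0277 at T0 and 0.106 and 0.0540 at T24. All 3 ratios were higher in both T24 libraries, and all 3 differed between the T24 libraries, as ptc-miR396f itself did. The ratio of ath-miR160a-5p to ath-miR164a had the largest fold change of the 4 ratios that were above 0 at both time points. It went from 0.0563 and 0.0474 at T0 to 1.00 and 1.09 at T24, a 20.2-fold higher mean with closely matched libraries. The pairs were chosen with earlier results of these data known. This one sets a miRNA that rose on the deposited scale over one that fell. The miR160 family acts on the auxin response factors ARF10, ARF16 and ARF17 in Arabidopsis, and the miR164 family on NAC transcription factors.

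Of the 394 miRNAs, 23 were above 0 in all 4 libraries, and for these a level could be compared in every library. They held 92.1 and 94.0% of the reads at T0 and 39.3 and 45.2% at T24 (86.7 and 91.5% without oan-miR-1421ag-5p). By name, 12 were of animal type, 10 of plant type and 1 was a numbered miRNA. On the deposited scale 8 of the 23 were higher on average at T24 and 15 lower. Without oan-miR-1421ag-5p these numbers were reversed, with 15 higher and 8 lower, as the median log2 change of the 23 moved by 1.08, from -0.54 to 0.54. In 16 of the 23 the direction was the same on both of these scales and after median-of-ratios scaling, 8 higher and 8 lower. The other 7, which changed direction with the scale, were ath-miR165a-3p, ath-miR168a-5p, ath-miR396a-5p, rno-miR-337-3p, dya-miR-9681-5p, bma-miR-9507 and hsa-miR-376a-5p.

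**Figure D2:**
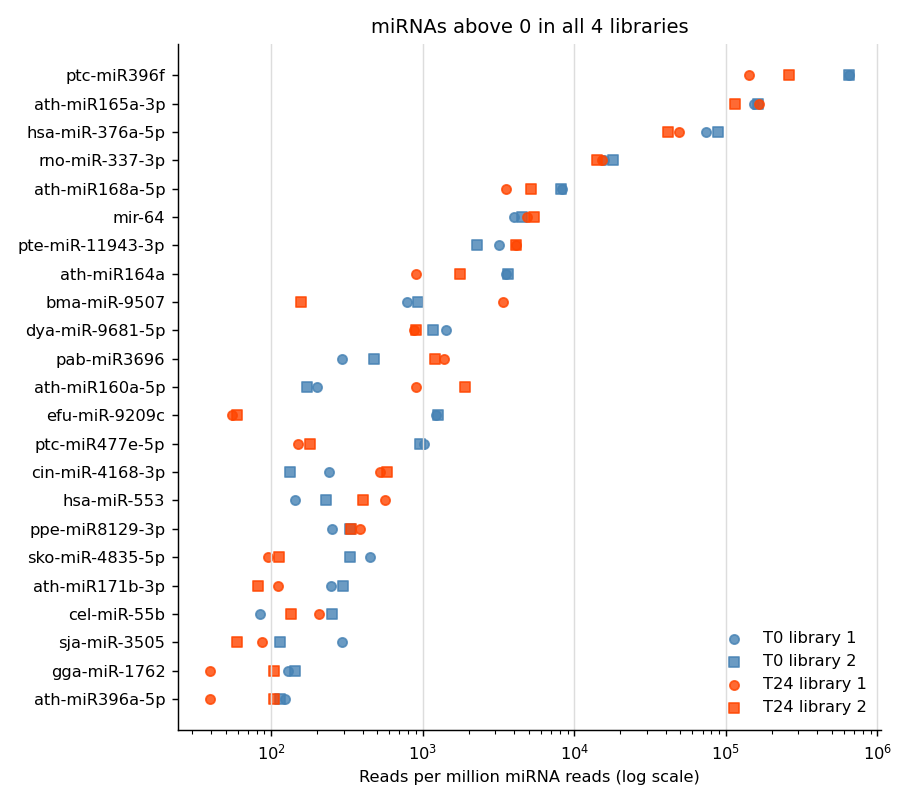
RPM (log axis) of the 23 miRNAs above 0 in all 4 libraries, 1 point per library, with T0 and T24 in different colours. The points run from 39.3 RPM to 651566 RPM, and efu-miR-9209c has the widest gap between its T0 and T24 points.

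Over all 394 miRNAs, the time points did not overlap for 78 (19.8%), with both T24 libraries above both T0 libraries for 33 (8.38%) and below them for 45 (11.4%). The 293 miRNAs above 0 in 1 library alone could not be among these, because their values of 0 tie. The percentages over all miRNAs are therefore not a like background for the 23. Among the 23, the corresponding numbers were 7 and 13, with 3 overlapping, on the deposited scale. Without oan-miR-1421ag-5p they were 11 and 6, with 6 overlapping, beside 9.92% above and 9.41% below over the 393 miRNAs left. With 2 libraries against 2, the exact permutation test of a single miRNA cannot give a two-sided p below 0.333, so the tests of single miRNAs rest on limma, whose standard errors (SE) borrow from the variance of all miRNAs in the fit. A miRNA is said to be called where the unadjusted limma p did not exceed 0.05 and the change reached 2-fold. With the 23 fitted alone, 10 (43.5%) were called, 4 higher and 6 lower at T24, and 9 were called without oan-miR-1421ag-5p, 7 higher and 2 lower. The 6 called on both scales were ath-miR160a-5p, pab-miR3696, cin-miR-4168-3p and hsa-miR-553, higher at T24, and efu-miR-9209c and ptc-miR477e-5p, lower at T24. In the test over all 394 miRNAs, whose spread includes the many miRNAs at 0 in 1 library, efu-miR-9209c alone of the 23 was called (limma adjusted p = 0.0961), and the other 5 had a limma adjusted p of 0.373. The SE given for any of the 23 are those of the fit of the 23, and for these 6 they were 0.84 to 0.95 over all 394.

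The largest increase in log2 terms among the 23 was that of ath-miR160a-5p, at 200.3 and 171.9 RPM at T0 and 897.1 and 1906 RPM at T24. Both T24 libraries lay well above T0, and they differed from each other more than the T0 libraries did. Its log2 change was 2.81 (SE 0.44, n = 2 and 2), and 3.89 (SE 0.41) without oan-miR-1421ag-5p. In the counts behind these values there were 31 and 30 reads at T0 and 114 and 256 at T24.

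The values of pab-miR3696 were 291 and 475 RPM at T0 and 1369 and 1199 RPM at T24, a log2 change of 1.78 (SE 0.36). Those of cin-miR-4168-3p were 239 and 132 RPM at T0 and 519 and 581 RPM at T24, a log2 change of 1.62 (SE 0.39). Those of hsa-miR-553 were 142 and 229 RPM at T0 and 559 and 402 RPM at T24, a log2 change of 1.39 (SE 0.38). The T24 libraries of all 3 lay above both T0 libraries and were closer to each other than those of ath-miR160a-5p. Without oan-miR-1421ag-5p the log2 changes were 2.86, 2.70 and 2.47. No role is assigned to these 3 carrot sequences here.

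On the other side, efu-miR-9209c went from 1221 and 1266 RPM at T0 to 55.1 and 59.6 RPM at T24, which were 7 and 8 reads. The libraries of each time point nearly coincided, and the T24 mean was 21.7-fold lower, a log2 change of -4.42 (SE 0.27). Without oan-miR-1421ag-5p the mean was 10.3-fold lower. The next largest decrease was that of ptc-miR477e-5p, whose family acts on GRAS transcription factors in other plants, from 1014 and 951 RPM to 149.5 and 178.7 RPM. Its T24 mean was 5.99-fold lower (log2 change -2.58, SE 0.28), or 2.84-fold lower without oan-miR-1421ag-5p.

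These 23 were refitted alone on both scales, with all libraries, with the replicate number as a block and with each library left out, which gave 12 fits. In all 12, pab-miR3696 and cin-miR-4168-3p were called higher and efu-miR-9209c and ptc-miR477e-5p lower. In 10 of the 12, ath-miR160a-5p and hsa-miR-553 were called. The decrease of sko-miR-4835-5p, from 446 and 332 RPM to 94.4 and 111.7 RPM, was called in 7. The decreases of ptc-miR396f and ath-miR171b-3p were each called in 5 and that of ath-miR164a in 4. Fits without T0 replicate 1 gave 6 calls on the deposited scale and fits without T24 replicate 2 gave 14, against 10 with all libraries.

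Calls that rest on the second scale were those of mir-64, ppe-miR8129-3p and pte-miR-11943-3p. The values of pte-miR-11943-3p were 3166 and 2263 RPM at T0 and 4131 and 4132 RPM at T24. Its log2 change was 0.63 (SE 0.31), and 1.71 (SE 0.28) without oan-miR-1421ag-5p. The corresponding changes of mir-64 were 0.27 and 1.35, and those of ppe-miR8129-3p were 0.31 and 1.39. All 3 were higher at T24 on both scales, and their size depended on the scale.

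**Figure D3:**
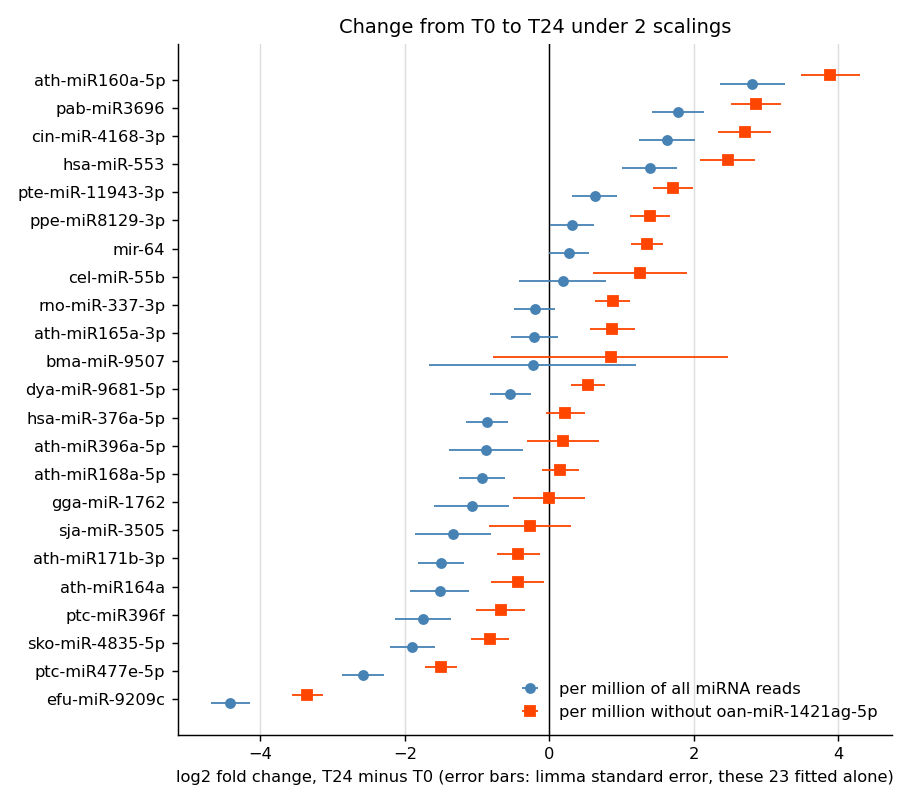
Log2 change from T0 to T24 of the 23 miRNAs above 0 in all 4 libraries, on the deposited scale and without oan-miR-1421ag-5p, with bars of 1 limma SE from the fit of the 23 alone. The second set of points lies 1.08 to the right at the median, and 7 miRNAs change sign with at least 1 of the alternative scales.

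The spread between libraries was wide for bma-miR-9507, with 782 and 928 RPM at T0 and 3360 and 156 RPM at T24. One T24 library lay above T0 and the other below, so that its mean was 2.06-fold higher while its log2 change was -0.23 (SE 1.43). By contrast, rno-miR-337-3p was among the steadiest, with 15741 and 17914 RPM at T0 and 15109 and 14035 RPM at T24. Its log2 change was -0.21 (SE 0.28), and 0.87 without oan-miR-1421ag-5p. For hsa-miR-376a-5p the RPM were 74187 and 89174 at T0 and 48741 and 41232 at T24, and without oan-miR-1421ag-5p the T24 values were 107632 and 83475, which overlapped T0.

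The conserved plant families were examined by the number in plant-type names, from a list of 31 families. Of these, 14 were found, with 23 names, and 17 were not. Of the 23 names, 8 were above 0 in all 4 libraries and 12 in a single one. Together they held 82.2% of the reads in each T0 library and 31.3 and 38.4% at T24, a difference of -47.3 percentage points (two-sided exact permutation p = 0.333, which cannot be lower with 2 libraries against 2). Without oan-miR-1421ag-5p the T24 shares were 69.0 and 77.8%, a difference of -8.76 points. On that scale the family names other than ptc-miR396f held 17.0 and 17.6% at T0 and 37.6 and 25.2% at T24, or 14.1 points more. The reads of ptc-miR396f stayed in the total here, so a fall of its share raises the shares of the others. The fall of the conserved families was thus carried by ptc-miR396f on the second scale.

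In the test over all 394 miRNAs, 21 (5.33%) were called higher and 31 (7.87%) lower at T24. Of the 23 family names, 0 were called higher and 2 lower, namely ptc-miR171l-3p and pab-miR482n. Among those not called, ath-miR168a-5p belongs to the family that acts on AGO1, the main slicer loaded with miRNAs in Arabidopsis, and had 8258 and 8106 RPM at T0 and 3557 and 5182 RPM at T24. On the second scale its T24 values were 7854 and 10491 RPM, on either side of T0. Both T24 libraries of ath-miR164a, at 897 and 1750 RPM, lay below its T0 libraries at 3560 and 3626 RPM. Without oan-miR-1421ag-5p its T24 values were 1981 and 3542 RPM, the second of these just under T0.

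The miR171 family, which acts on GRAS factors of the SCL6 type in Arabidopsis, had 2 names. The values of ath-miR171b-3p were 246 and 298 RPM at T0 and 110 and 81.9 RPM at T24, so that T24 lay below T0, and 243 and 166 RPM at T24 without oan-miR-1421ag-5p. The values of ptc-miR171l-3p were 562 and 252 RPM at T0, and it was listed at 0 in both T24 libraries. However, by the authors' annotation its precursor overlaps that of mir-23, which was listed at 0 at T0 and had 582 and 1169 RPM at T24. Added together, the pair had 562 and 252 RPM at T0 and 582 and 1169 RPM at T24 (log2 change 1.13, limma adjusted p = 0.382), and the fall of the one name and the rise of the other were both lost.

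The miR319 family, which acts on TCP transcription factors in Arabidopsis, also depended on names. By that annotation ppt-miR319a, ath-miR319a and dme-miR-286-5p share a precursor. The values of ppt-miR319a were 594 and 0 RPM at T0 and 323 and 0 RPM at T24, and ath-miR319a had 536 RPM in the second T24 library and 0 in the other 3. Summed over the 3 names, the values were 594 and 51.6 RPM at T0 and 323 and 536 RPM at T24, which overlapped. Altogether 34 of the names fell into 16 such sets. When each set was summed, 50 of 376 entries were called, 46 of them also called before, and the calls of mir-23, ptc-miR171l-3p, dme-miR-315-5p, bta-miR-2285i, mir-45 and ppc-miR-8348-5p were lost.

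The remaining family names were low or came from 1 library. The values of pab-miR482n, whose family acts on NLR resistance genes in other plants, were 58.2 and 57.3 RPM at T0, or 9 and 10 reads, and it was listed at 0 at T24. At its T0 share, 3.3 and 3.8 reads would have been present in the T24 libraries once the reads of oan-miR-1421ag-5p are set aside, so this loss lies near the detection limit. Found in the first T0 library alone were aqc-miR167 (auxin response factors ARF6 and ARF8), ath-miR398a-3p and stu-miR398b-3p (copper/zinc superoxide dismutases), osa-miR395u (sulfate assimilation), bdi-miR166e-3p, cme-miR164b and ptc-miR319i, at 25.8 to 775 RPM. The second T0 library alone held ptc-miR408-5p at 177.6 RPM. At T24, ath-miR827 and pab-miR482j were in the first library alone, at 31.5 and 63.0 RPM, and osa-miR396e-5p was in the second alone, at 648 RPM.

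All 21 miRNAs called higher were listed at 0 in both T0 libraries, and 30 of the 31 called lower were listed at 0 in both T24 libraries, the other being efu-miR-9209c. The calls were therefore almost wholly of miRNAs seen at 1 time point. Every miRNA above 0 in both libraries of 1 time point and listed at 0 in both of the other was called. The presence pattern thus settled these calls in this fit. By limma with Benjamini-Hochberg adjustment, 28 had an adjusted p of at most 0.05, 13 higher and 15 lower. This number followed the value added before the log, and was 51 with 0.1 added and 2 with 10 added. Without oan-miR-1421ag-5p 53 of 393 (13.5%) were called, 22 (5.6%) higher and 31 (7.89%) lower. Of these, 51 were shared with the deposited scale, and the additional ones were ath-miR160a-5p and cel-miR-77-5p. The number of calls therefore changed little with the scale, which cannot turn the direction of a miRNA seen at 1 time point. Of the 23 miRNAs above 0 in all 4 libraries, 7 changed direction with the scale. With the replicate number as a block, 29 were called, 14 higher and 15 lower, with no adjusted p below 0.493. With 1 library of a time point left out, a 0 in the other no longer has a disagreeing partner, and 128 were called without the first T0 library, 184 without the second, 118 without the first T24 library and 104 without the second.

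Seen in both T24 libraries and listed at 0 at T0 were 21 miRNAs, of which 15 had animal-type names, 2 plant-type names and 4 a number. After oan-miR-1421ag-5p, the most abundant was aca-miR-5406-5p at 10789 and 9865 RPM. It was followed by gga-miR-1799 at 4100 and 5309 RPM. Within each library the ratio of aca-miR-5406-5p to oan-miR-1421ag-5p was 0.0197 and 0.0195, which nearly coincided, and that of gga-miR-1799 was 0.00749 and 0.0105. At lower levels, 3 with no overlapping precursor were mir-52 at 936 and 916 RPM, dvi-miR-9696a-5p at 897 and 558 RPM and efu-miR-9225 at 732 and 350 RPM. Still lower were bmo-miR-3397 at 142 and 395 RPM and mir-48 at 205 and 261 RPM. The 20 other than oan-miR-1421ag-5p held 1.96 and 2.03% of the T24 reads, or 4.33 and 4.10% of the reads left without it.

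Seen in both T0 libraries and listed at 0 at T24 were 30 miRNAs, 20 of animal type, 5 of plant type and 5 with a number. They held 0.968 and 0.918% of the T0 reads. The most abundant were bta-miR-2450b at 1816 and 1501 RPM, bta-miR-507-3p at 1150 and 1215 RPM and hsa-miR-448 at 1163 and 1157 RPM. All 3 were close between the T0 libraries, and each had 178 or more reads in both. They were followed by hsa-miR-5580-5p at 775 and 728 RPM, ppt-miR11317 at 510 and 624 RPM and der-miR-9691-5p at 452 and 521 RPM. Lower still was mmu-miR-5110 at 388 and 304 RPM.

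**Figure D4:**
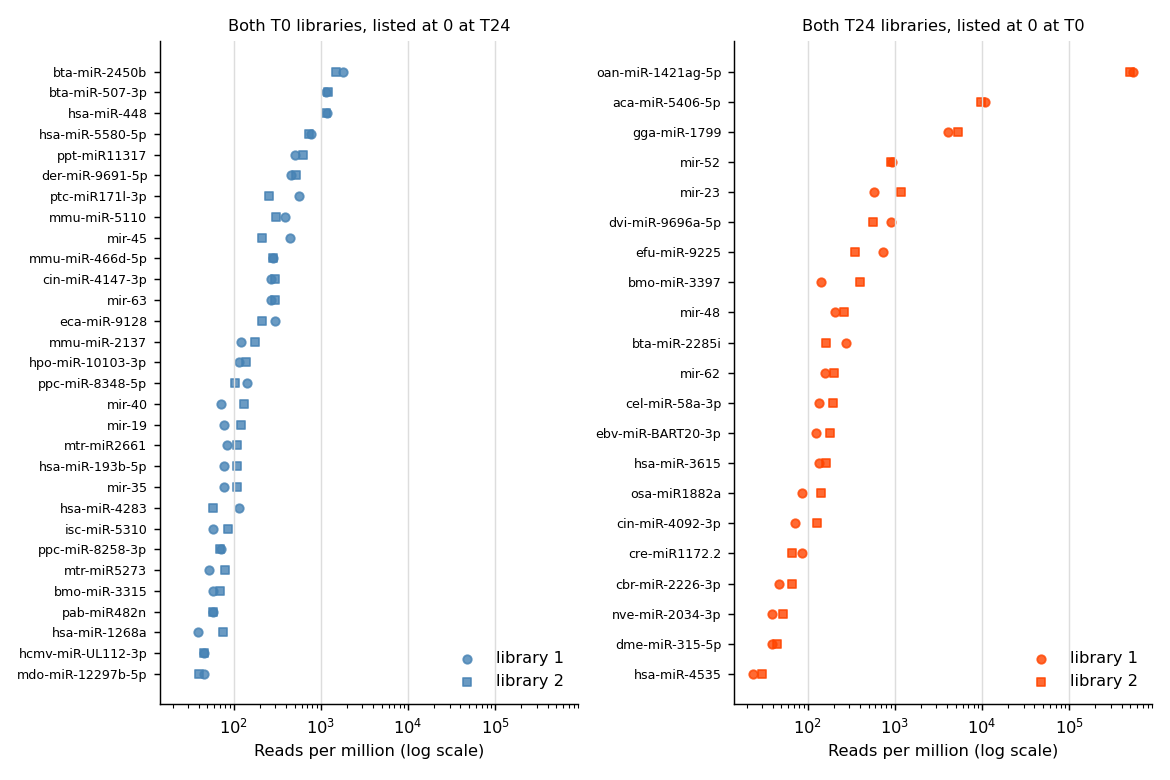
RPM (log axis) of all 30 and 21 miRNAs that were above 0 in both libraries of 1 time point and listed at 0 in both of the other, 1 point per library, with the T0-only miRNAs on the left and the T24-only miRNAs on the right. The T0-only miRNAs lie between 38.8 and 1816 RPM, and the T24-only miRNAs between 23.6 RPM and 547148 RPM.

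The depth behind these absences was examined by the number of reads each miRNA would have had at its share in the other time point. For the 30 seen only at T0, the reads of oan-miR-1421ag-5p were set aside. Of these, 28 would have had more than 3 reads and 13 more than 10 reads in both T24 libraries. For bta-miR-2450b these were 95.4 and 110 reads, and for hsa-miR-448 66.8 and 77.0 reads. The 21 seen only at T24 were taken at their share of all T24 reads, oan-miR-1421ag-5p included. All 21 would have had more than 3 reads and 17 more than 10 reads in both T0 libraries. In the later T48 libraries, 4 of the 21 were in both, 4 in 1 and 13 in neither, and of the 30 these numbers were 2, 1 and 27. Of the leading miRNAs, gga-miR-1799 was in both T48 libraries at 13732 and 5948 RPM, while oan-miR-1421ag-5p and aca-miR-5406-5p were each listed at 0 in the first T48 library and had 468448 and 11405 RPM in the second.

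Libraries of the same time point also differed by absences of this kind. Of the 394 miRNAs, 293 were seen in 1 of the 4 libraries, 191 of them at T0 and 102 at T24. Among the miRNAs of the first T0 library, 136 were listed at 0 in the second, although 99 of these would have had more than 10 reads there and 9 more than 100 reads. In the other direction 78 were listed at 0, 52 of them with more than 10 reads expected. At T24, 51 miRNAs of the first library were at 0 in the second, 32 of them with more than 10 reads expected, and 68 of the second were at 0 in the first, 31 of them so. Counting error at these depths is therefore smaller than the difference between libraries that the list shows, and its part in the calls was not tested.

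The most abundant of these disagreements was that of hpo-miR-232a-5p, at 31572 and 30082 RPM at T0 and at 27204 RPM in the first T24 library and 0 in the second. In reads these were 4886, 5251, 3457 and 0. The T0 libraries nearly coincided, and the T24 libraries differed completely. Next came cca-miR6109 at 7767 RPM and gga-miR-6687-3p at 5719 RPM, both in the first T0 library alone. The second T24 library alone held hsa-miR-889-3p at 4132 RPM, and the second T0 library alone held dme-miR-2501-5p at 2756 RPM. On the deposited scale both T24 libraries of hpo-miR-232a-5p lay below both T0 libraries, so it is counted among the 45 given above. Without oan-miR-1421ag-5p they overlapped T0. Because the libraries of a time point disagreed, no difference between the time points was read from any of these 5.

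The number of miRNAs seen per library was 193 and 135 at T0 and 105 and 122 at T24. Both T24 libraries lay below both T0 libraries, at 113.5 ± 12.0 (SD, n = 2) against 164.0 ± 41.0 (SD, n = 2), a difference of -50.5 (exact permutation test, two-sided, p = 0.333). Brought to an equal depth of 57548 reads without oan-miR-1421ag-5p, the numbers expected were 188.8 and 133.1 at T0 and 104.0 and 121.0 at T24. Most of the difference came from the first T0 library, for without it the difference was -21.5, and without the second T0 library it was -79.5. With at least 10 reads required, 141 and 113 miRNAs were seen at T0 and 73 and 79 at T24. Names of animal type numbered 129 and 82 at T0 and 64 and 78 at T24, names of plant type 39 and 33 against 26 and 27, and numbered miRNAs 25 and 20 against 15 and 17.

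**Figure D5:**
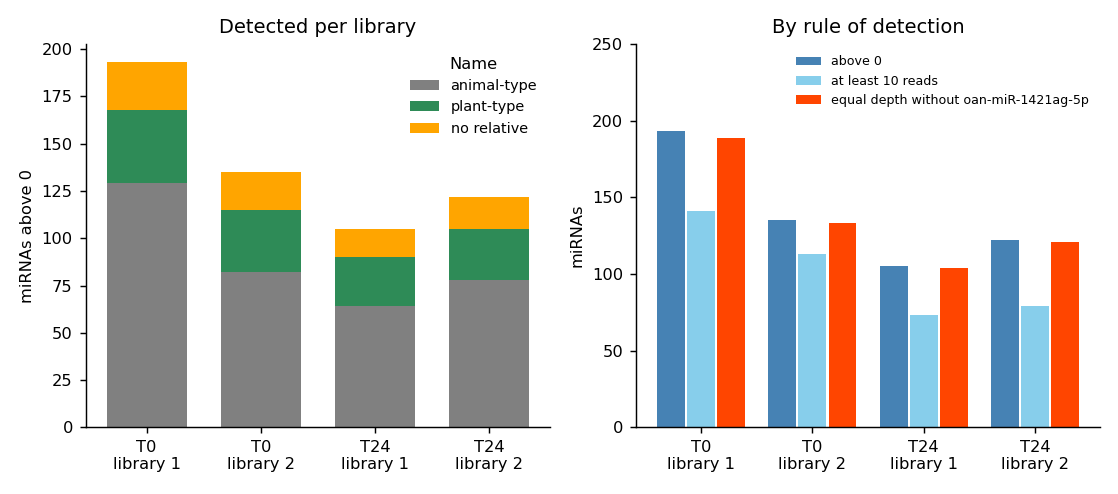
Number of miRNAs in each library (vertical axes, from 0), on the left above 0 and stacked by type of name, on the right above 0, with at least 10 reads, and at equal depth without oan-miR-1421ag-5p. Above 0, the T0 libraries lie at 193 and 135 and the T24 libraries at 105 and 122.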

How the data were processed

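Small RNA was sequenced from 2 libraries at each time point, and the T0 and T24 libraries were compared. Adaptors were removed by the authors with cutadapt, reads under 18 nt or of low quality were dropped, and the rest were matched to miRBase with Bowtie2 and miRDeep2, allowing 1 mismatch and up to 200 mapping positions. The genome build is not given in the sources used here, so no positions are printed. The deposited values, called TPM by the authors, are RPM values with no length term. The smallest total that makes every deposited RPM value a whole number of reads (tolerance 0.01) was taken as a library's total. On these totals the smallest value of a library was 2 to 4 reads and never 1, so the totals and all read numbers given are inferred from the values and are the lowest that the values allow. Where reads match several miRNAs, the authors' counting could have split them.

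The 394 miRNAs were tested on log2(RPM + 1) with lmFit and eBayes of limma 3.58.1 (R 4.3.3). This scale understates the change of scarce miRNAs that are above 0 in all 4 libraries. For a miRNA listed at 0 at 1 time point, the size of the change is set by the added value, which is less than 1 read. For aca-miR-5406-5p it was 13.3, against 16.7 with 0.1 added and 10.0 with 10 added. A miRNA was called where the change reached 2-fold and the unadjusted p did not exceed 0.05, and p-values were adjusted by the Benjamini-Hochberg method. Other computations used Python 3.11.15 with numpy 2.4.6, pandas 2.3.3 and scipy 1.17.1, and figures matplotlib 3.10.9. The fit was tested on simulated counts, in which both libraries of a time point had the same expected share of each miRNA. That test does not cover absences from a single library such as those described above. Median-of-ratios factors came from the 23 miRNAs above 0 in all 4 libraries. Summing of overlapping precursors used the positions in the authors' annotation, and 5 names without a prefix, at 0 throughout, were left out. No column was left unused (0 columns).

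Named are the miRNAs above 0 in all 4 libraries, the members of the listed plant families, the 9 that the study took to RT-qPCR, the 10 called higher and the 10 called lower with the highest mean, and the 5 with the highest value beside a 0 in the other library of that time point. A few others (cel-miR-77-5p and single members of summed sets) are named where a call turned on them. The members, lists and tests were chosen with earlier results of these data known. Alternatives were other pseudocounts (0.1 and 10), filters, scalings, a variance trend, all 6 libraries, a replicate block and single libraries left out.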

Additional observations from a re-analysis of the deposited data

Results flagged for a closer look

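The T48 libraries, which the comparison does not use, held 3 miRNAs that were above 0 in both of them and listed at 0 in all 4 libraries of T0 and T24. The most abundant was cin-miR-4158-5p, at 1187 RPM in the first T48 library and 635 RPM in the second. The other 2 were nve-miR-2050-5p, at 108 and 55.0 RPM, and cin-miR-4027-5p, at 108 and 40.0 RPM.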

How the results depend on the processing

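The 52 calls (21 higher, 31 lower) became 104 to 184 calls with single libraries left out (27 to 81 higher, 37 to 156 lower), since the lone library of a time point is assumed to vary like the others. The column names of the same replicate number share an ending, whose meaning is not given. By replicate number, the correlation of deviations between the time points was 0.02 over all 394 and -0.18 over the 23 above 0 in all 4 libraries. With 1 difference per time point, these values cannot decide whether the libraries were paired. With the replicate number as a block 29 were called, 15 of them lower. An adjusted p of at most 0.05 left 28 (13 higher, 15 lower), one of at most 0.5, the study's wider criterion, 368 (135 higher, 233 lower), and the 23 miRNAs above 0 in all 4 libraries gave 10 (4 higher, 6 lower), or 6 to 14 with a library left out, fits added after seeing the data. Without oan-miR-1421ag-5p, the share of the conserved-family names other than ptc-miR396f differed by 14.1 points, with ptc-miR396f kept in the total. Without oan-miR-1421ag-5p the log2 changes that turned positive were ath-miR165a-3p 0.87, rno-miR-337-3p 0.87, bma-miR-9507 0.85, dya-miR-9681-5p 0.54, hsa-miR-376a-5p 0.22, ath-miR396a-5p 0.19, ath-miR168a-5p 0.15 and ppt-miR319a 0.13. By median-of-ratios scaling they were ath-miR165a-3p 0.31, bma-miR-9507 0.29 and rno-miR-337-3p 0.32. With precursors merged, ptc-miR171l-3p turned to 1.13 and ppt-miR319a to 1.24. With single libraries left out, the ranges that crossed 0 were -0.47 to 0.058 for ath-miR165a-3p, -2.44 to 1.98 for bma-miR-9507, -0.60 to 0.97 for cel-miR-55b and -5.05 to 4.17 for ppt-miR319a. The first of these shifts is that of the total once the reads of oan-miR-1421ag-5p are set aside. For the other turns the cause was not tested. Of the alternative values of named log2 changes, 19 turned, 67 passed the threshold where the first fit did not, 8 no longer passed it and 689 did neither. The planned count tests were not run, because the table holds scaled values and the read numbers are inferred, with a smallest value of 2 to 4 reads. Absences under 3 reads are not detectable at this depth.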
